A study of Mus musculus with 18 samples.

Results

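The replication-dependent histone genes were examined in WT and Chd8-/- Tregs. Members were taken by symbol: every gene of the RNA-seq table whose name starts with Hist1h, Hist2h, Hist3h or Hist4h. There were 69 of them among 35865 genes listed under a single name, namely 6 H1, 19 H2a, 19 H2b, 12 H3 and 13 H4 genes. RNA was sequenced from Tregs sorted as YFP+ among CD4+ cells of the spleen, in 2 WT and 2 Chd8-/- libraries. Chd8-/- mice carried floxed Chd8 and Foxp3 YFP-Cre (genotype label CHD8Flox/FloxFoxp3YFP-Cre). The label of the WT mice is CHD8flox/floxFoxp3YFP-Cre/+, which also names a floxed Chd8, whereas the study describes its WT mice as Chd8+/+ with Foxp3 YFP-Cre, and the grouping as WT was used. Cre and YFP are expressed as a fusion from the X-linked Foxp3 locus, so deletion and sorting both rest on Foxp3 expression. All 4 libraries are labelled with a Poly IC injection, and the ages of these mice are not given in the labels. Xist was listed at 500.2 to 843.3 TPM and the Y-linked Ddx3y, Eif2s3y, Kdm5d and Uty at 0 in all 4 libraries, while the study describes a male and a female in each genotype.

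Replication-dependent histone genes encode the H1 linker histones and the core histones H2A, H2B, H3 and H4 that package new DNA during S phase. Their genes lie in clusters, mostly lack introns, and give mRNAs that normally end in a conserved stem-loop in place of a poly(A) tail. The stem-loop binding protein SLBP and the U7 small nuclear ribonucleoprotein form this end, and NPAT activates transcription of the clusters at entry into S phase. CHD8 is a chromatin remodeler known to bind histone H1.

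In GRCm38, with positions from RefSeq, 54 of the 55 Hist1 members lay on chromosome 13 between 21715711 and 23934913, and Hist1h2al lay apart at chr13:51200084-51203066. The Hist2 cluster held 10 members on chromosome 3 (96219885 to 96270192), the Hist3 cluster 3 members on chromosome 11 (58948911 to 58955192), and Hist4 a single gene on chromosome 6 (136803993 to 136804431). GENCODE annotates 2 members, Hist1h2al and Hist3h2bb-ps, as processed pseudogenes. In RefSeq 64 members had no intron in any transcript. A stem-loop was found in the last exon, or within 50 bases after it, for 66 members, in 8 versions. The commonest version was held by 42 members and the next by 9, none of them H4 genes, and H4 genes held 4 other versions among them. The sequences below are shown because they mark the mRNA end that sets these genes apart, for Hist1h1e and Hist1h4d, the most abundant H1 and H4 genes, and for 4 genes described further on that include less common versions, with the stem-loop in capitals.
Hist1h1e (chr13:23621777-23621802, minus strand): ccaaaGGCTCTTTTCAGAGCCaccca
Hist1h2bg (chr13:23571838-23571863, plus strand): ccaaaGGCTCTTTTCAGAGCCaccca
Hist1h2bk (chr13:22036295-22036320, plus strand): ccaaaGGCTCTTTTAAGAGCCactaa
Hist1h3g (chr13:23535884-23535909, plus strand): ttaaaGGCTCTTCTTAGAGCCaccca
Hist1h4d (chr13:23581945-23581970, plus strand): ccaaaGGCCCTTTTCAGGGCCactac
Hist1h4b (chr13:23757361-23757386, plus strand): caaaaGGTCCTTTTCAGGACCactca

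No match was found in Hist2h2be, Hist1h2an and Hist1h2al. The RefSeq transcript of Hist2h2be, at chr3:96221072-96223738, is 2667 bases long without an intron.

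Values were TPM, read counts scaled by gene length and by library total, and differences were taken on log2(TPM + 1), where a fold change understates the change of low genes. Of all genes, 15240 had at least 1 TPM in 2 or more libraries and were tested together. Among the members 67 passed this filter, and the testis genes Hist1h1t and Hist1h2aa, at most 2.5 and 0.4 TPM, did not. Chd8 itself was 14.9 and 11.4 TPM in the Chd8-/- libraries and 24.7 and 27.6 TPM in the WT libraries, a log2 fold change of -0.95 (SE 0.29, adjusted p = 0.455 in limma). Between 9130000 and 13020000 reads per library were estimated on the genes whose length was known. Members had a median of 157 to 316 reads per library, which gives a counting error of 5.63% to 7.98% at the median. Between the WT libraries the log2 differences of the 64 members with at least 10 reads in every library had an SD of 0.639, while counting alone gives 0.185.

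Histone RNA was most abundant in Chd8-/- replicate 2. All members summed to 8453.7 TPM in Chd8-/- replicate 1, 18199.4 TPM in Chd8-/- replicate 2, 8945.0 TPM in WT replicate 1 and 7893.9 TPM in WT replicate 2. Chd8-/- replicate 1 thus lay between the WT libraries, and Chd8-/- replicate 2 stood at 2.16 times the WT mean. Chd8-/- replicate 2 was the highest of the 4 libraries for 52 of the 67 members tested, beside 21.9% of all genes tested. The difference of the log2 sums between genotypes was 0.56, with an SD of 0.78 in Chd8-/- and 0.13 in WT (exact two-sided permutation test, n = 2 and 2, p = 0.667, where 0.333 is the smallest p this design allows). Without Chd8-/- replicate 2 the difference was 0.0087.

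The H2b sum was higher in both Chd8-/- libraries than in either WT library, and so was the H1 sum. H2b genes summed to 2526.7 and 6798.8 TPM in Chd8-/- and to 2346.2 and 1805.3 TPM in WT, a log2 difference of 1.01. H1 genes summed to 1623.8 and 3073.2 TPM in Chd8-/- and to 1439.9 and 1454.3 TPM in WT, a log2 difference of 0.63. Without Chd8-/- replicate 2 these differences were 0.30 for H2b and 0.17 for H1. Exact permutation tests of these sums gave p = 0.333 for H2b and for H1 (n = 2 and 2), the smallest this design allows. For H2a (1592.0 and 3296.7 against 1907.3 and 1677.1 TPM), H3 (979.7 and 1852.2 against 1357.4 and 1025.3 TPM) and H4 (1731.5 and 3178.5 against 1894.2 and 1931.9 TPM), Chd8-/- replicate 1 was the lowest library and Chd8-/- replicate 2 the highest. The log2 differences of these types were 0.36, 0.19 and 0.29, and without Chd8-/- replicate 2 they were -0.17, -0.27 and -0.14.

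**Figure D1:**
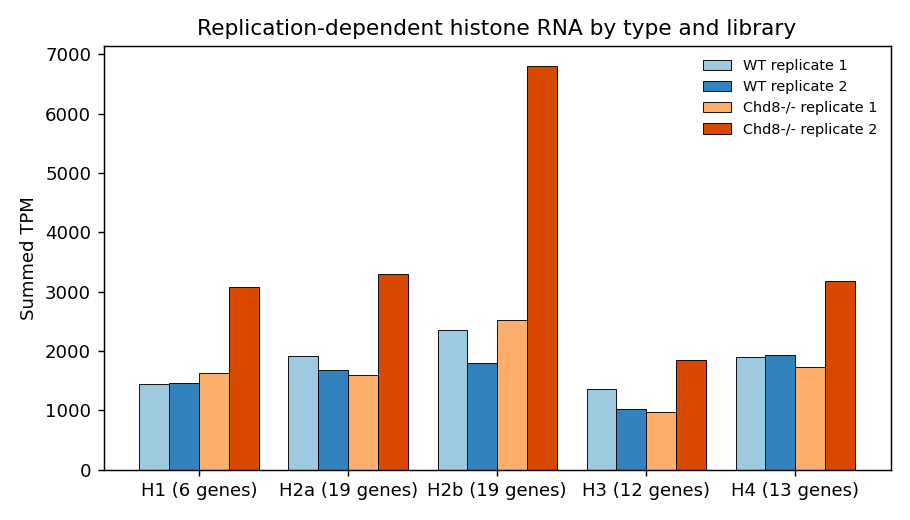
Summed TPM of the genes of each histone type (x axis) in each of the 4 libraries (bars, y axis from 0). Chd8-/- replicate 2 is the highest bar in every type, and Chd8-/- replicate 1 is above both WT bars in H1 and H2b and below both in H2a, H3 and H4.

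The makeup of histone RNA also differed. H2b genes made up 29.9% and 37.4% of histone TPM in the Chd8-/- libraries and 26.2% and 22.9% in the WT libraries. The ratio of H2b to H2a RNA was 1.59 and 2.06 in Chd8-/- and 1.23 and 1.08 in WT, and that of H2b to H3 RNA was 2.58 and 3.67 in Chd8-/- and 1.73 and 1.76 in WT. These ratios were higher in both Chd8-/- libraries, including the one whose histone total did not differ from WT. The ratio of H2b to H1 RNA overlapped, at 1.56 and 2.21 in Chd8-/- and 1.63 and 1.24 in WT. No test was run on the ratios, which were chosen after the sums had been seen.

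No member passed an adjusted p-value of 0.05 in limma (Benjamini-Hochberg over all genes tested), and 0.0% of all genes did. The smallest adjusted p-value among the members was 0.433 in limma, for Hist1h2bg. An unadjusted p-value under 0.05 was reached by 5 members (10.2% of all genes), of which 4 were higher (3.9% of all genes) and 1 lower (6.3% of all genes). By size alone, 9 of 67 members were higher in Chd8-/- by a log2 fold change of at least 1, beside 5.12% of all genes, and 3 were lower by that much, beside 11.6%. The 2 genotypes did not overlap in 7 of the 9, beside 4.0% of all genes, and in all 3 that were lower, beside 9.05%. Of these 7, Hist1h2al passed the filter only through the Chd8-/- libraries, where it was high, so its place there carries no weight. With a filter at a mean TPM of at least 5, 8 members were higher. Counting any size, 14 members had the Chd8-/- libraries above both WT libraries, beside 14.8% of all genes, a share of the members not far from that background. For 3 members they were below both, beside 27.8%. With quantile normalization, which gives every library the same distribution of values, 10 members were higher and 2 lower by at least 1. Over all genes these counts were 1146 and 1231, in place of 781 and 1768. Without this normalization, the median log2 fold change was 0.34 over the members and -0.15 over all genes tested. With only Chd8-/- replicate 1 against the WT mean, 5 members were higher by at least 1 (6.49% of all genes) and 7 lower (9.49%). With only Chd8-/- replicate 2, 25 were higher (8.99% of all genes) and 4 lower (20.4%).

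**Figure D2:**
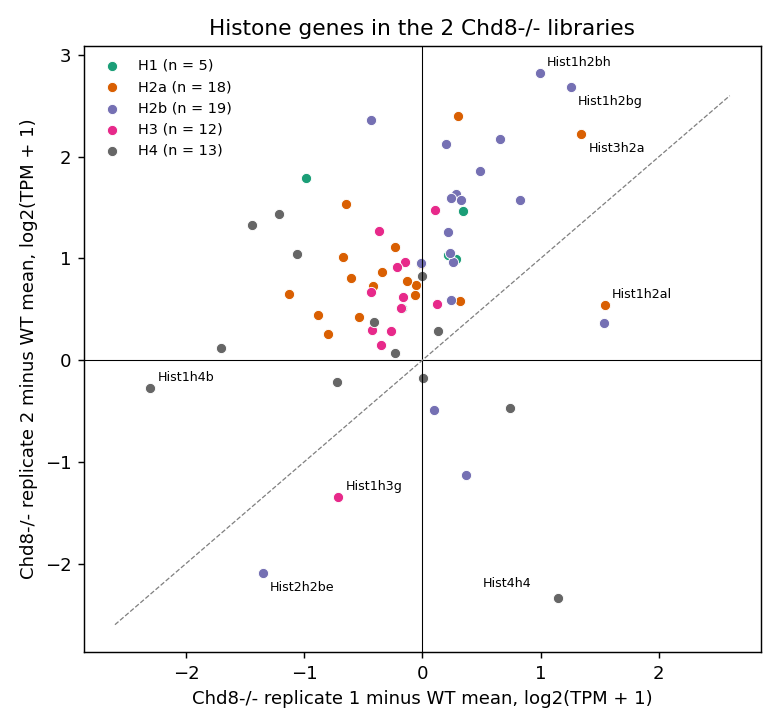
Each point is 1 of 67 histone genes, placed by its difference from the WT mean in Chd8-/- replicate 1 (x axis) and Chd8-/- replicate 2 (y axis), both on log2(TPM + 1), with the dashed line at equal differences. H2b genes gather right of 0 and far above the line, while most H2a, H3 and H4 genes lie left of 0 and above it.

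H2b genes held 6 of the 9 members that were higher by at least 1, a size reached by 5.12% of all genes. Of 19 H2b genes, 9 were above either WT library in both Chd8-/- libraries (14.8% of all genes). In both libraries 1 was below (27.8% of all genes), and 9 overlapped. Their median log2 fold change was 0.95. In Chd8-/- replicate 1 alone, 16 of 19 H2b genes were above the WT mean, beside 46.9% of all genes tested, and in Chd8-/- replicate 2 also 16 were, beside 37.0%. In Chd8-/- replicate 1 the same held for 3 of 5 H1 genes, 4 of 18 H2a genes, 2 of 12 H3 genes and 4 of 13 H4 genes. In Chd8-/- replicate 2 it held for 5 of 5 H1, 18 of 18 H2a, 11 of 12 H3 and 8 of 13 H4 genes, so there the other types were mostly above the WT mean as well.

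Hist1h2bg, an H2B gene at chr13:23571400-23571863, was 204.0 and 550.2 TPM in Chd8-/- and 97.0 and 74.3 TPM in WT. Its groups did not overlap, and its log2 fold change of 1.97 (SE 0.53) was the largest of the members. Hist1h2bh, at chr13:23542923-23543444, was 170.4 and 607.2 TPM in Chd8-/- and 74.4 and 97.6 TPM in WT, with a log2 fold change of 1.90 (SE 0.65, adjusted p = 0.473 in limma). In both genes Chd8-/- replicate 1 was above either WT library, and Chd8-/- replicate 2 was far above it. Leaving out each library in turn, the log2 fold change of Hist1h2bg ran from 1.25 to 2.68 and that of Hist1h2bh from 0.99 to 2.82.

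Hist1h2bk was 226.4 and 589.1 TPM in Chd8-/- and 149.1 and 174.7 TPM in WT, a log2 fold change of 1.17. Hist1h2be was 41.2 and 69.7 TPM in Chd8-/- and 24.4 and 21.2 TPM in WT, a log2 fold change of 1.20. Hist1h2bp was 27.0 and 79.1 TPM in Chd8-/- and 18.8 and 15.0 TPM in WT, a log2 fold change of 1.41. None of these 3 genes overlapped between genotypes. Without Chd8-/- replicate 2 the log2 fold changes were 0.49 for Hist1h2bk, 0.83 for Hist1h2be and 0.65 for Hist1h2bp. Hist1h2bl, the most abundant H2b gene, was 598.5 and 2272.2 TPM in Chd8-/- and 623.0 and 434.8 TPM in WT. Its log2 fold change of 1.16 rested on Chd8-/- replicate 2, and without that library it was 0.20. The second H2b gene by level, Hist1h2bm, was 460.4 and 952.0 TPM in Chd8-/- and 495.9 and 316.5 TPM in WT, and overlapped as well.

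Copies of H2b genes are close to each other in sequence. Every 50-base window of Hist1h2bq and Hist1h2br was also found in another member, and the share was 68.2% for Hist1h2bg, 70.3% for Hist1h2bk, 64.9% for Hist1h2bl, 48.4% for Hist1h2bh, 46.7% for Hist1h2bp and 11.3% for Hist1h2be. How reads that fit several copies were counted is not given, so values of single copies are uncertain where this share is high. Among H2b genes with under 50% of windows shared, a smaller set, 3 were higher by at least 1, beside 6 of all 19 (a limit chosen after the data were seen). These counts are out of different numbers of genes and were not compared as shares.

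Hist2h2be differed the other way. It was 14.2 and 8.1 TPM in Chd8-/- and 53.7 and 26.5 TPM in WT, with no overlap and a log2 fold change of -1.72 (SE 0.49, adjusted p = 0.444 in limma). Leaving out each library in turn, it ran from -2.22 to -1.23. It shared 0.0% of its windows with other members, and it is the H2b gene in which no stem-loop was found. Hist2h2bb, in the same cluster on chromosome 3, was 56.3 and 19.3 TPM in Chd8-/- and 43.7 and 43.2 TPM in WT. Hist3h2ba was 37.6 and 24.7 TPM in Chd8-/- and 75.6 and 15.9 TPM in WT. Both overlapped between genotypes, and the 3 H2b genes with a log2 fold change below 0 were thus outside the Hist1 cluster. The pseudogene Hist3h2bb-ps, also an H2b member outside that cluster, had a log2 fold change of 0.95 and overlapped.

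**Figure D3:**
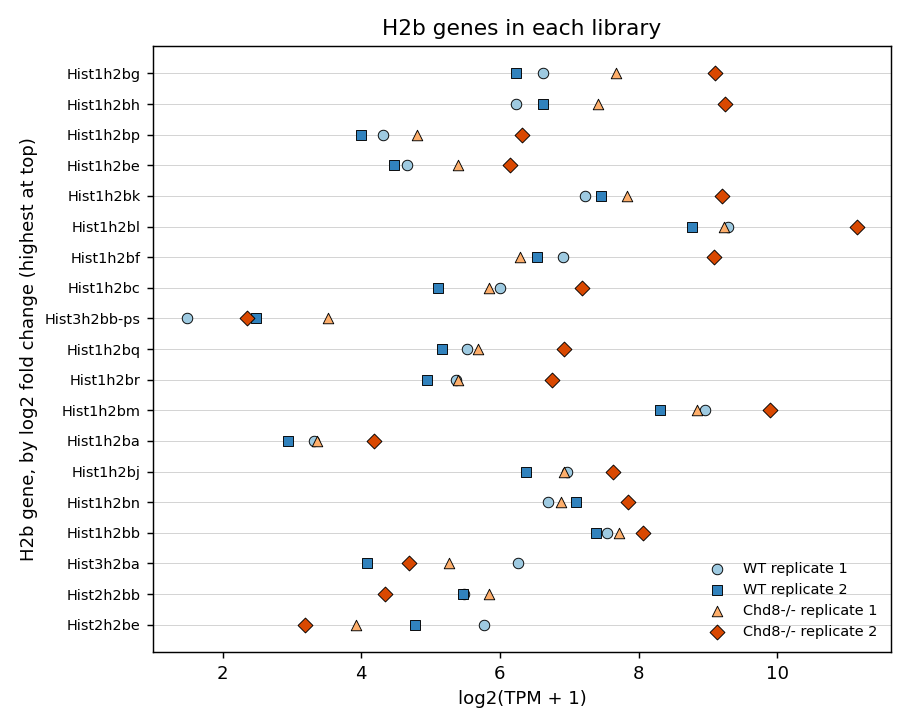
Level of each of the 19 H2b genes (y axis, ordered by log2 fold change) in each library on log2(TPM + 1) (x axis). The top 5 genes, Hist1h2bg to Hist1h2bk, have both Chd8-/- points right of both WT points, and Hist2h2be has both left of them.

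Many H2b genes start beside an H2a gene on the other strand. There were 13 such head-to-head pairs with starts within 500 bases of each other, at distances of 164 to 281 bases, and both genes were tested in 12. In 10 of these 12 pairs the log2 fold change of the H2b gene was above that of its H2a partner, with a median difference of 0.78. Against the WT mean it was above in 11 pairs in Chd8-/- replicate 1 and in 10 pairs in Chd8-/- replicate 2. The H2b genes among the pairs are not independent where they share sequence, and no test was run on the pairs. Hist1h2ae starts 180 bases from Hist1h2bg and was 28.2 and 131.3 TPM in Chd8-/- and 69.2 and 28.8 TPM in WT, so it overlapped where Hist1h2bg did not. The ratio of Hist1h2bg to Hist1h2ae TPM was 7.23 and 4.19 in Chd8-/- and 1.40 and 2.58 in WT. Hist1h2ah, 178 bases from Hist1h2bk, was 19.1 and 45.5 TPM in Chd8-/- and 22.8 and 26.3 TPM in WT. That ratio, Hist1h2bk over Hist1h2ah, was 11.9 and 12.9 in Chd8-/- and 6.54 and 6.64 in WT. In 2 pairs the H2a gene had the higher log2 fold change, Hist2h2ac over Hist2h2be and Hist3h2a over Hist3h2bb-ps.

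**Figure D4:**
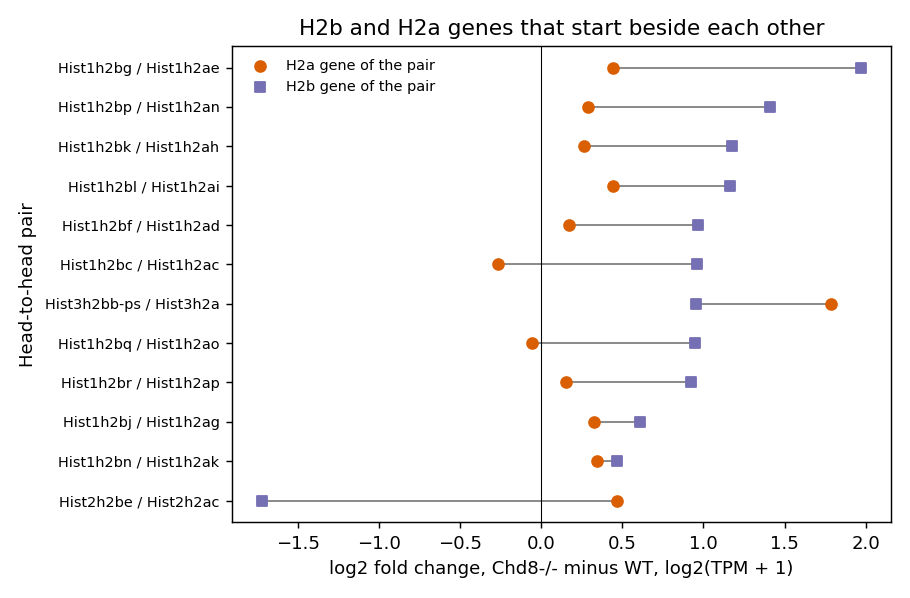
log2 fold change (Chd8-/- minus WT, x axis) of the H2a gene (circles) and the H2b gene (squares) of 12 head-to-head pairs (y axis). The square is right of the circle in 10 pairs, and left of it for Hist2h2be and Hist3h2bb-ps.

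The promoters of the members share sequence features. RefSeq promoters, from 250 bases before to 50 bases after the start, were found for 62 members. The TATA box TATAAA, on either strand, was in 56.5% of them and in 14.2% of 27025 promoters of all genes. CCAAT, on either strand, was in 85.5% of member promoters and 37.9% of all promoters. It was in every promoter of the H1, H2a, H2b and H3 members read and in 3 of 12 H4 promoters. The octamer ATTTGCAT, on either strand, was in 21.0% of member promoters and 1.8% of all promoters, and it was found in 7 of 18 H2a and 6 of 16 H2b promoters and in no H1, H3 or H4 promoter. Each motif was searched on its own, and matches of different motifs may share letters. The octamer windows of 2 H2b genes with a log2 fold change above 1 and of Hist2h2bb, with one below 0, are shown to compare them, with the octamer in capitals.
Hist1h2bg (chr13:23571331-23571358, plus strand): tgagtcccttATTTGCATagaacctcta
Hist1h2bk (chr13:22035781-22035808, plus strand): atttcactttATTTGCATacgaagttct
Hist2h2bb (chr3:96269642-96269669, plus strand): gtgaaacctcATTTGCATacaagctcta

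The window of Hist1h2bg is also that of its partner Hist1h2ae, read from the other strand, so members of a pair share a match. Within H2b genes the median log2 fold change was 0.69 for the 6 tested with an octamer and 0.96 for the 10 without. With a TATA box it was 0.80 in 8 genes, and without one 0.94 in 8. A match says only that these letters are in the window.

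H2a genes, which encode the partner of H2B in the nucleosome, had a median log2 fold change of 0.31 over the 18 tested. Hist1h2ak, the most abundant, was 433.9 and 750.0 TPM in Chd8-/- and 430.3 and 470.9 TPM in WT. Hist2h2ac was 358.1 and 692.8 TPM in Chd8-/- and 378.8 and 342.0 TPM in WT, and Hist1h2ai was 157.2 and 401.5 TPM in Chd8-/- and 209.6 and 163.5 TPM in WT. All 3 overlapped between genotypes. Hist3h2a was 79.2 and 146.5 TPM in Chd8-/- and 20.2 and 46.1 TPM in WT, without overlap, at a log2 fold change of 1.78 (SE 0.53, adjusted p = 0.451 in limma). The pseudogene Hist1h2al was 3.8 and 1.4 TPM in Chd8-/- and 0.6 and 0.7 TPM in WT, a log2 fold change of 1.04 on 9 to 76 reads per library, and 0.54 without Chd8-/- replicate 1. It passed the filter only through the Chd8-/- libraries. Hist2h2ab had a log2 fold change of 1.35 and overlapped, at 29.9 and 131.4 TPM in Chd8-/- and 38.5 and 15.0 TPM in WT. The remaining 12 H2a genes tested had log2 fold changes within 1.

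The 5 linker histone genes tested had log2 fold changes above 0, from 0.17 to 0.91, beside 38.5% of all genes above 0. In Chd8-/- replicate 1 alone, 3 of these 5 were above the WT mean, beside 46.9% of all genes. Hist1h1e, which encodes H1.4 and was the most abundant, was 810.5 and 1324.8 TPM in Chd8-/- and 729.1 and 605.8 TPM in WT, at a log2 fold change of 0.64 (SE 0.29, adjusted p = 0.553 in limma). Hist1h1b, which encodes H1.5, was 367.0 and 799.5 TPM in Chd8-/- and 256.4 and 324.5 TPM in WT, at a log2 fold change of 0.91 (SE 0.42, adjusted p = 0.555 in limma). Without Chd8-/- replicate 2 these were 0.29 and 0.35. Neither gene overlapped between genotypes, and Hist1h1b shared 0.0% of its windows with other members. Hist1h1c (H1.2) was 221.7 and 356.6 TPM in Chd8-/- and 238.1 and 261.2 TPM in WT, Hist1h1d (H1.3) 186.7 and 330.4 against 133.6 and 192.6 TPM, and Hist1h1a (H1.1) 37.5 and 261.6 against 80.2 and 70.2 TPM. These overlapped, and for Hist1h1a and Hist1h1c Chd8-/- replicate 1 was the lowest library and Chd8-/- replicate 2 the highest.

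H3 and H4 genes, whose products form the core tetramer of the nucleosome, had median log2 fold changes of 0.20 over 12 genes and -0.05 over 13 genes. Hist1h4d was the most abundant member of all, at 1366.9 and 2436.0 TPM in Chd8-/- and 1315.9 and 1424.5 TPM in WT, and overlapped. Of the other H4 genes, Hist1h4f was 122.1 and 136.4 TPM in Chd8-/- and 92.4 and 134.3 TPM in WT, and Hist1h4j was 28.5 and 184.6 TPM in Chd8-/- and 73.8 and 61.8 TPM in WT. Hist1h4b was below WT in both Chd8-/- libraries, at 7.3 and 32.9 TPM against 41.1 and 38.8 TPM. Its log2 fold change of -1.29 rested on Chd8-/- replicate 1, and without that library it was -0.27.

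Of the H3 genes, Hist1h3e was 219.0 and 378.7 TPM in Chd8-/- and 223.8 and 270.0 TPM in WT, Hist1h3b 198.8 and 322.2 against 300.8 and 169.4 TPM, and Hist2h3c2 111.9 and 243.1 against 168.6 and 91.0 TPM. These 3 overlapped. Hist1h3g, at 45.6 and 29.0 TPM in Chd8-/- and 109.8 and 51.6 TPM in WT, did not, with a log2 fold change of -1.03 (SE 0.47, adjusted p = 0.552 in limma), and -0.49 without WT replicate 1. Its stem-loop version was found in no other member, which also held for 2 other genes. Hist4h4 moved in opposite directions in the Chd8-/- libraries, at 10.2 TPM in replicate 1 and listed at 0 in replicate 2, beside 2.8 and 5.7 TPM in WT, on 0 to 30 reads (named after its values were seen).

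Genes that make, process and deposit histones were set beside the members. Genes listed as replication-independent histones had a median log2 fold change of 0.02 over 9 genes tested, with 1 above and 1 below WT in both Chd8-/- libraries. Over all genes tested, 14.8% were above and 27.8% below in this way and the median was -0.15, and the counts and medians of each list stand beside these. H2afz, which encodes H2A.Z, was 991.6 and 914.3 TPM in Chd8-/- and 775.2 and 707.4 TPM in WT. H2afy, which encodes macroH2A1, was 37.8 and 34.8 TPM in Chd8-/- and 40.2 and 40.5 TPM in WT. H3f3b, which encodes H3.3, was 281.4 and 231.7 TPM in Chd8-/- and 244.9 and 261.6 TPM in WT. Among 14 genes of histone mRNA transcription and 3' end processing, the median was -0.18, near that of all genes, with 1 above and 5 below in both libraries. Slbp was 53.1 and 42.1 TPM in Chd8-/- and 27.6 and 42.3 TPM in WT, and Npat was 20.5 and 12.8 TPM in Chd8-/- and 23.0 and 21.2 TPM in WT. Slbp overlapped between genotypes and Npat was lower in both Chd8-/- libraries. Rnu7, the U7 RNA, was 2.4 TPM and listed at 0 in Chd8-/- and was 3.3 and 3.1 TPM in WT. For so short an RNA such values rest on few reads, so its place among the 5 below carries little weight. Lsm10, a U7 protein, was 5.9 and 6.7 TPM in Chd8-/- and 10.6 and 10.6 TPM in WT. Srrt was 22.3 and 19.8 against 30.1 and 32.5 TPM, and the cleavage factor Cstf2 was 7.7 and 8.5 against 11.4 and 11.1 TPM. Among 15 genes of the polyadenylation machinery, the median was -0.16, also near that of all genes. Of these, 1 gene, Nudt21, had a log2 fold change above 0 (38.5% of all genes), at 139.0 and 158.3 TPM in Chd8-/- and 101.8 and 119.1 TPM in WT. Cpsf6, Fip1l1 and Papola, the poly(A) polymerase, were lower in both Chd8-/- libraries, with log2 fold changes of -0.61, -0.37 and -0.30.

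Among 22 histone chaperones and deposition factors, 8 were above and 8 below WT in both Chd8-/- libraries (14.8% and 27.8% of all genes), and the median log2 fold change was 0.04. Chaf1a, a subunit of the chaperone CAF-1 that acts at replication forks, was 22.2 and 23.2 TPM in Chd8-/- and 11.7 and 9.4 TPM in WT, a log2 fold change of 1.04 (SE 0.29, adjusted p = 0.441 in limma). Asf1b was 27.2 and 49.7 TPM in Chd8-/- and 18.6 and 23.8 TPM in WT, a log2 fold change of 0.78. Anp32e, a chaperone of H2A.Z, was 122.2 and 127.5 TPM in Chd8-/- and 62.0 and 85.8 TPM in WT, a log2 fold change of 0.77. Chaf1b was 15.9 and 16.3 TPM in Chd8-/- and 6.8 and 12.3 TPM in WT, a log2 fold change of 0.75.

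Of 26 S phase genes, 12 were above and 1 below WT in both Chd8-/- libraries (14.8% and 27.8% of all genes), with a median log2 fold change of 0.32. Gins2, a subunit of the replicative helicase, was 36.2 and 94.8 TPM in Chd8-/- and 27.3 and 25.0 TPM in WT, and Rrm1, a subunit of ribonucleotide reductase, was 103.7 and 104.5 TPM in Chd8-/- and 40.2 and 74.6 TPM in WT. The replication clamp Pcna was 570.8 and 523.6 TPM in Chd8-/- and 420.7 and 397.3 TPM in WT, and Mcm2 was 66.2 and 91.5 TPM in Chd8-/- and 58.3 and 58.2 TPM in WT. Mcm3 was 153.8 and 167.5 TPM in Chd8-/- and 69.9 and 108.3 TPM in WT, and Cdc6, which loads the helicase, was 5.4 and 2.9 TPM in Chd8-/- and 1.7 and 1.7 TPM in WT. In these 5 lists no tested gene reached an adjusted p-value of 0.05 in limma, and 3 chaperone and 2 S phase genes, all higher, had an unadjusted p-value under 0.05 (3.9% of all genes in that direction). Summed over the list, S phase genes were 1603.5 and 1642.1 TPM in Chd8-/- and 1185.6 and 1213.4 TPM in WT. The Chd8-/- libraries were close to each other in this sum, unlike in the sums of histone RNA, and Pcna was its largest part. Single S phase genes such as Gins2 differed between the Chd8-/- libraries. Chd8-/- replicate 2 was the highest library for 11 of the 26 genes, beside 21.9% of all genes tested. The proliferation marker Mki67 was 58.2 TPM in Chd8-/- replicate 1, 114.2 TPM in Chd8-/- replicate 2 and 67.6 and 68.6 TPM in WT.

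The summed markers of other cell types were highest in Chd8-/- replicate 2, while single markers differed. Summed TPM of 5 erythroid genes was 1945.6 in Chd8-/- replicate 2, 8.5 in Chd8-/- replicate 1 and 384.5 and 351.3 in WT. That of 6 myeloid genes was 1427.3 in Chd8-/- replicate 2, 25.7 in Chd8-/- replicate 1 and 93.8 and 74.1 in WT, and Lyz2 alone was 1360.3 TPM in Chd8-/- replicate 2. The neutrophil gene S100a8 was 5.3 and 16.5 TPM in Chd8-/- and listed at 0 in both WT libraries. That of 4 B cell genes was 138.9, 35.5, 43.4 and 27.0, and that of 6 CD8 and NK cell genes 55.8, 14.0, 44.4 and 29.4, in Chd8-/- replicates 2 and 1 and in WT replicates 1 and 2. The NK cell gene Ncr1 was 1.3 TPM in WT replicate 1 and listed at 0 in the other libraries, while Gzma was highest in Chd8-/- replicate 2, at 13.6 TPM. Chd8-/- replicate 2 was the highest library for 4 of 5 erythroid, 4 of 5 myeloid, 3 of 4 B cell and 2 of 5 CD8 and NK cell genes tested. The exceptions were Alas2, Cd14, Cd79b, Cd8a, Cd8b1 and Klrb1c. Alas2 was lower in both Chd8-/- libraries, at 8.0 and 7.5 TPM against 15.0 and 21.5 TPM in WT. Cd79b was lowest in Chd8-/- replicate 2, at 8.9 TPM. Prf1 was higher in both Chd8-/- libraries, at 2.7 and 4.7 TPM against 0.0 and 1.0 TPM in WT. The part of these other cells in the histone values was not tested. The Treg genes Foxp3 (202.8 to 232.1 TPM) and Il2ra (860.5 to 1156.3 TPM) were high in all 4 libraries. Ctla4 and Tnfrsf18 were higher in both Chd8-/- libraries, with log2 fold changes of 0.51 and 0.73, and Cd4 and Cd3e lower, with -0.36 and -0.26. In sorted bulk samples, fewer cells of a type and less RNA per cell cannot be told apart.

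**Figure D5:**
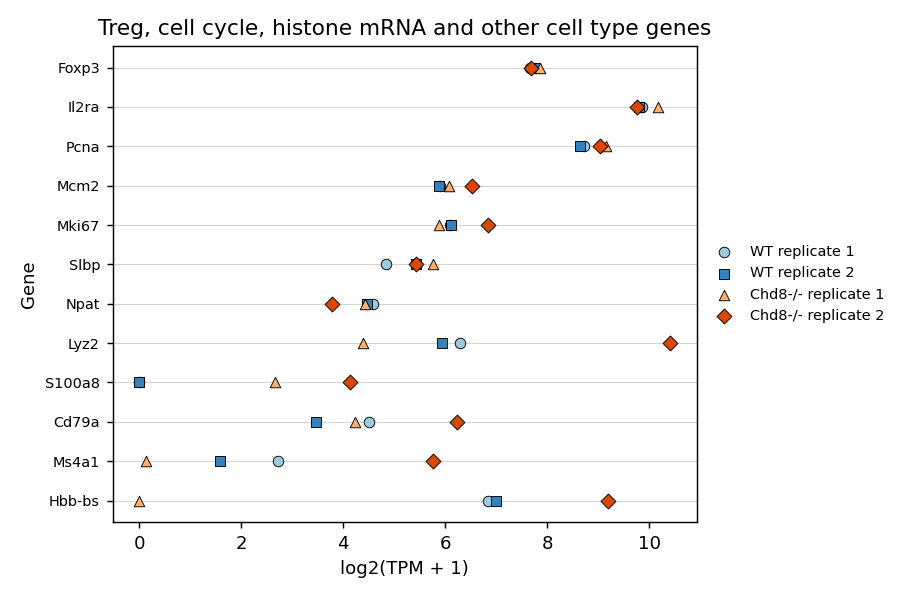
Level of selected genes (y axis) in each library on log2(TPM + 1) (x axis). Foxp3 and Il2ra lie together, and Lyz2, Cd79a, Ms4a1 and Hbb-bs are highest in Chd8-/- replicate 2. Markers that were not highest there, such as Cd79b and Alas2, are not shown.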

How the data were processed

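RNA-seq of 2 WT and 2 Chd8-/- Treg libraries was analysed. Reads had been aligned by the authors to mm10 (STAR 2.6.1e) after trimming, freed of duplicates (sambamba) and counted per RefSeq gene (featureCounts 1.6.2), and the deposited values are TPM rounded to 0.1. The study names a 10X Genomics 3' assay, a kind primed at poly(A) tails, as well as an Illumina RNA-seq kit, and which of them applies to these libraries could not be told. Most histone mRNAs lack such tails, and removal of duplicates can lower short, abundant genes. Of 35869 entries, 4 whose name was repeated were not used. Genes with at least 1 TPM in 2 or more libraries were compared on log2(TPM + 1) with limma 3.58.1 in R 4.3.3 (two-sided, mean-variance trend, p-values adjusted by Benjamini-Hochberg). The p-values measure the spread between these libraries, whose mice are not named in the labels. Reads were estimated from TPM, RefSeq exon lengths and the value of 1 read, set from RNAs under 300 bases. Of their values of up to 10 reads, 99.5% to 99.7% came out whole within the rounding of TPM. The errors given from reads cover counting error only. All 69 members matched GENCODE vM21 and RefSeq (GRCm38.p6). Python 3.11.15 with pysam 0.24.0, numpy 2.4.6, pandas 2.3.3 and matplotlib 3.10.9 was used.

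Members named are the 3 most abundant of each type, those with a log2 fold change of at least 1 and no overlap, those past the adjusted p-value, and linker histones. A further 6 (Hist1h2ae, Hist1h2ah, Hist2h2ab, Hist2h2bb, Hist3h2ba and Hist4h4) were named after their values were seen. Hist3h2bb-ps, given beside the H2b genes outside the Hist1 cluster, is not counted among the named members. From other lists up to 4 genes without overlap and with the largest change are named, with Slbp, Npat, H2afz, H3f3b, Pcna and Mcm2. Mki67, Foxp3, Il2ra and markers of other cell types that overlap, such as Lyz2, Gzma and Ncr1, were named outside this rule. Alternatives were a pseudocount of 0.1 or 5 TPM, a filter at a mean of 5 TPM or none, quantile normalization, limma without trend, a replicate block, TPM scaled without the 100 highest genes, and each library left out. Some marker genes of other cell types are not reported here. Members and lists were chosen with earlier results of these data known. The ATAC-seq and CHIP-seq tables hold peaks in mm39, and were not used here, since the annotation used was GRCm38 and builds were not mixed.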

Additional observations from a re-analysis of the deposited data

How the results depend on the processing

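Members had a median of 157 to 316 reads per library, and low ones are limited by depth. With 2 libraries per genotype, no exact test of a sum can pass 0.05. Leaving out a library leaves a lone sample, which is assumed to vary like the others.

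Genes past an adjusted p-value of 0.05 numbered 0 (limma, 1555 at an unadjusted p-value under 0.05), and 2 at a mean TPM of at least 5. Genes higher by at least 1 numbered 781, 362 with a pseudocount of 5 and 989 to 1371 with a library left out. Genes lower by at least 1 numbered 1768, 690 with a pseudocount of 5, 1149 at a mean TPM of at least 5 and 1447 to 3107 with a library left out. Quantile normalization moved these counts to 1146 higher and 1231 lower. Members higher by at least 1 numbered 9, and 5 to 25 with a library left out. The members lower numbered 3, and 3 to 7 with a library left out, while H2b members higher numbered 6, and 2 to 12 with a library left out. Chd8-/- replicate 1 alone gave 5 members higher, 7 lower and 2 H2b members higher, Chd8-/- replicate 2 alone gave 25 members higher and 12 H2b members higher, and 3 H2b members were higher with under 50% of windows shared. These were added after the data were seen.

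With a library left out, the log2 differences of the sums ran from 0.0087 to 1.11 for all members, 0.17 to 1.09 for H1, -0.17 to 0.88 for H2a, 0.30 to 1.72 for H2b, -0.27 to 0.65 for H3 and -0.14 to 0.73 for H4. They turned for H2a, H3 and H4 without Chd8-/- replicate 2, and for H3 also without WT replicate 2 (-0.011). The other alternatives turned no sum. Of the 32 named members tested, the log2 fold change crossed 0 for 16, with ranges over the libraries left out of -0.98 to 1.79 (Hist1h1a), -0.17 to 0.51 (Hist1h1c), -0.23 to 1.11 (Hist1h2ai), -0.053 to 0.74 (Hist1h2ak), -0.25 to 0.58 (Hist1h3b), -0.17 to 0.62 (Hist1h3e), -0.0023 to 0.83 (Hist1h4d), -0.057 to 0.48 (Hist1h4f), -1.22 to 1.44 (Hist1h4j), -0.0073 to 0.94 (Hist2h2ac), -0.15 to 0.97 (Hist2h3c2), -0.65 to 1.53 (Hist1h2ae), -0.34 to 0.87 (Hist1h2ah), -1.13 to 0.37 (Hist2h2bb), -1.28 to 0.90 (Hist3h2ba) and -2.34 to 1.15 (Hist4h4). The sign turned without Chd8-/- replicate 2 for each of these but Hist1h4f, where it turned without WT replicate 1. Why values turned was not tested.

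Libraries share only a replicate number, and their deviations correlated at -0.012 over all genes tested. With the replicate block 0 genes passed (smallest adjusted p-value 0.552 in limma), with 9 members higher and 3 lower, and no call changed. The alternatives planned for ATAC-seq and CHIP-seq at histone gene starts were not run.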
